A study of Picea abies with 48 samples.

Results

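Rootstocks of Norway spruce (Picea abies) were compared with uncut hypocotyl 14 days after grafting (DAG) in 6 of the 48 RNA-seq libraries of the series: the 3 rootstock libraries and the 3 intact libraries of that day, selected by their column names in the raw count table. Rootstock samples were the tissue just below the graft junction of wild-type seedlings from the seed source FP-96 Skogsgård, cut through the hypocotyl at an age of 10 to 12 days and joined, within a silicon collar, to the scion of another seedling of the species. Intact samples were hypocotyl pieces of ungrafted, uncut seedlings with the same genotype, taken on the same day. A replicate pooled 5 plants, as about 1 mm of stem from rootstocks and 2 mm from intact plants, so wounding, grafting, nearness to the junction and length of the piece differed together and cannot be told apart. The remaining 42 libraries covered scions and other days, and those of 7 and 28 DAG and of the day 14 scion served for comparison. The question was which genes the lower side of a graft still expressed differently from undamaged stem at this age of the union.

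A grafted stem heals in steps: cells beside the cut divide and form callus, the walls of facing cells are softened and joined, and new phloem and xylem are laid down to restore transport. In Arabidopsis, wound-induced transcription factors of the AP2/ERF, GRAS and WOX families promote callus formation and tissue regeneration. Pectinases, glucanases and expansins loosen and remodel cell walls, while laccases and class III peroxidases oxidise monolignols into lignin in maturing xylem. Conifer stems also answer wounding with phenolics, pathogenesis-related proteins and chitinases.

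The 6 libraries held between 12622687 and 17507415 counted reads (15015857 to 17507415 in rootstock, 12622687 to 16479013 in intact), against 11511598 to 27687377 over all 48. Replicates correlated at 0.968 to 0.976 in log2 normalized reads within a group, and rootstock correlated with intact libraries at 0.901 to 0.925. Rootstock libraries expressed more genes at 1 CPM (a count scaled to the total of its library) or above, 30746 ± 313.3 against 29769 ± 205.5 in intact libraries (SD, n = 3 each), and their 10 most abundant genes took 6.64% ± 0.29 of the reads, against 8.55% ± 0.37 in intact libraries. Neither set of 3 values overlapped the other (two-sided exact permutation test, p = 0.1 for both, the smallest p that 3 against 3 allows). The labels gave no batch for these libraries. The phloem marker PaAPL-like and the xylem marker PaVND4-like were read in all 6 libraries, and no marker particular to hypocotyl was available to test the tissue label further.

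Of 70736 gene models, 38436 had enough reads to be tested. At 14 DAG, 3578 genes (9.31%) were up-regulated and 1835 (4.77%) down-regulated in rootstock relative to intact hypocotyl, at an adjusted p below 0.05 and a change of more than 1 on the log2 scale in either direction. Genes called by this rule in either direction made up 14.1% of those tested, and 66.1% of them were higher in rootstock. The median log2 fold change over all tested genes was 0.03. Every rootstock library lay above every intact library in 9637 genes (25.1%) and below in 8811 (22.9%), shares against which such an arrangement of a single gene is to be read. Among the genes called, 1688 (47.2%) of the up-regulated genes passed a log2 fold change of 2, against 432 (23.5%) of the down-regulated genes passing -2. Of the 1688 and the 432, 549 and 101 had no more than 3 reads over the group in which they were lower. Beyond 4 on this scale there were 615 genes higher and 60 lower, of which 387 and 49 were as scarce, so that their fitted sizes are uncertain. In bulk tissue, a larger number of cells of one type and more RNA per cell cannot be told apart.

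**Figure D1:**
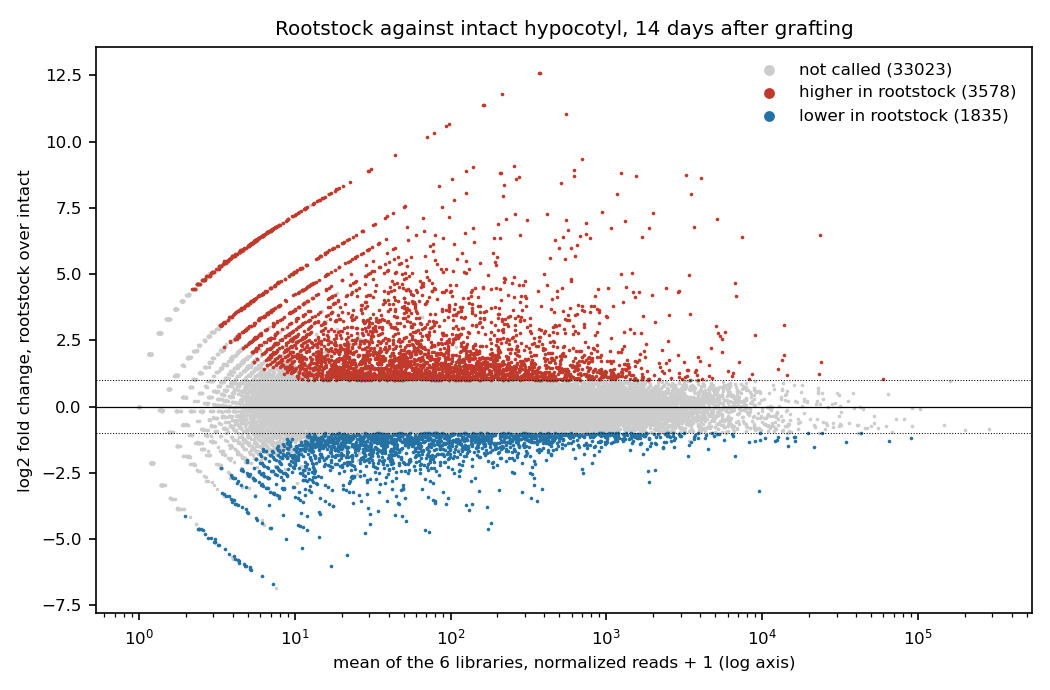
Each point is one of 38436 tested genes, placed by its mean over the 6 libraries (normalized reads + 1, log axis) and its log2 fold change in rootstock over intact hypocotyl at 14 DAG; dotted lines mark 1 and -1. The 3578 genes called higher extend further from 0 than the 1835 called lower, and the curved streaks at the left are genes with a few reads in one group.

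Names were held for 3823 of the tested genes, taken from gene lists and from tables of genes changed at 1 DAG or by auxin. Among these, 1089 (28.5%) were up-regulated at 14 DAG and 95 (2.48%) down-regulated, with a median log2 fold change of 0.63, so a list drawn from the names is read here against 28.5% and 2.48% and not against the shares over all genes. The lists also reach the lower side poorly, since only 95 of its 1835 genes carried a name.

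Regulators that promote callus and regeneration in Arabidopsis were up-regulated in rootstock 14 days after the cut. PaERF115-like (MA_10274g0010) is an ERF factor that the study named after Arabidopsis ERF115 but that is annotated as ERF114-like. Arabidopsis ERF115 is induced in cells next to dead cells and drives their replacement. The spruce gene had 544, 420.1 and 599 normalized reads (counts divided by each library's size factor) in the 3 rootstock libraries, against 2.85, 1.13 and 0 in the 3 intact libraries. It was nearly silent in uncut stem and abundant in every rootstock. With 3 reads over the intact libraries the ratio was 418-fold (95% counting interval 143 to 2030), at an adjusted p of 2.8e-19. PaPAT1-like (MA_10426489g0020), a GRAS protein whose Arabidopsis relative acts with ERF115, had 173, 151 and 152 normalized reads in rootstock and 69.8, 61.2 and 65.3 in intact hypocotyl, a log2 difference of 1.31 (SE 0.18 and adjusted p = 9.9e-08). It was thus well expressed without grafting and its groups were apart by a smaller step. PaWOX13-like (MA_116716g0010), whose Arabidopsis relative acts in callus formation and organ reconnection, had 69.4, 82.4 and 108 in rootstock, against 24.2, 17.01 and 28.5 in intact stem, a log2 difference of 1.92 (SE 0.25 and adjusted p = 2.8e-08).

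The AP2/ERF gene PaWIND1-like (MA_98464g0010), related to an Arabidopsis factor that triggers dedifferentiation at wounds, was read 17.1, 46.7 and 16.03 times in rootstock after normalization, against 8.54, 0 and 3.56 in intact hypocotyl. The groups did not overlap, but the second rootstock replicate stood well above the other two. Its log2 difference of 2.85 (SE 1.01 and adjusted p = 0.024) lost the call without rootstock replicate 2 (adjusted p = 0.16), without intact replicate 2 (0.11) or without intact replicate 3 (0.066).

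A further 4 transcription factors that the study named were up-regulated. The study picked these 4 and PaPAT1-like as strongly up-regulated network hubs on these same samples. Their direction here is thus not independent evidence. PaMYB123-like (MA_10048467g0010) is named after an Arabidopsis activator of proanthocyanidin synthesis but annotated as a MYB5-like transcription repressor. It had 186, 147 and 240.5 normalized reads in rootstock and 1.424, 0 and 2.38 in intact libraries, a ratio of 153-fold (95% counting interval 52 to 743) on 3 intact reads (adjusted p = 4.2e-14). PaMYB4-like (MA_316475g0010), whose Arabidopsis relative represses phenylpropanoid genes, had 189, 155 and 197 in rootstock and 4.27, 1.13 and 9.50 in intact stem, a log2 difference of 5.18 (SE 0.49 and adjusted p = 8.9e-11). PaLRP1-like (MA_2299g0010), related to a gene of lateral root primordia, had 202, 199.6 and 271 in rootstock, against 12.8, 7.94 and 19.01 in intact stem, a log2 difference of 4.10 (SE 0.30 and adjusted p = 4.1e-14). All 3 were low in every intact library, while PaWIP4-like (MA_29238g0010), a zinc finger factor of a family active in root meristems, had 485, 479.7 and 549.7 in rootstock, against 181, 226 and 232 in intact stem, and so was well expressed in both (log2 fold change 1.27, SE 0.14, adjusted p = 6.5e-10).

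Of the 60 tested transcription factors that the study had listed as activated by grafting on these same samples, 39 were up-regulated and 0 down-regulated in rootstock at 14 DAG, with a median log2 fold change of 1.29. The list was chosen on these libraries and so is not independent evidence of its direction. Its highest named member was a FER-LIKE IRON DEFICIENCY-INDUCED TRANSCRIPTION FACTOR-like gene (MA_10431811g0010), of a bHLH type that controls iron uptake in Arabidopsis roots, with 367, 399 and 553 normalized reads in rootstock and 0, 3.40 and 0 in intact hypocotyl (353-fold, 95% counting interval 120 to 1710). Among 20 WRKY factors, a family that controls defence genes, 5 were higher (25%, beside 28.5% among genes with a name) and 0 lower.

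**Figure D2:**
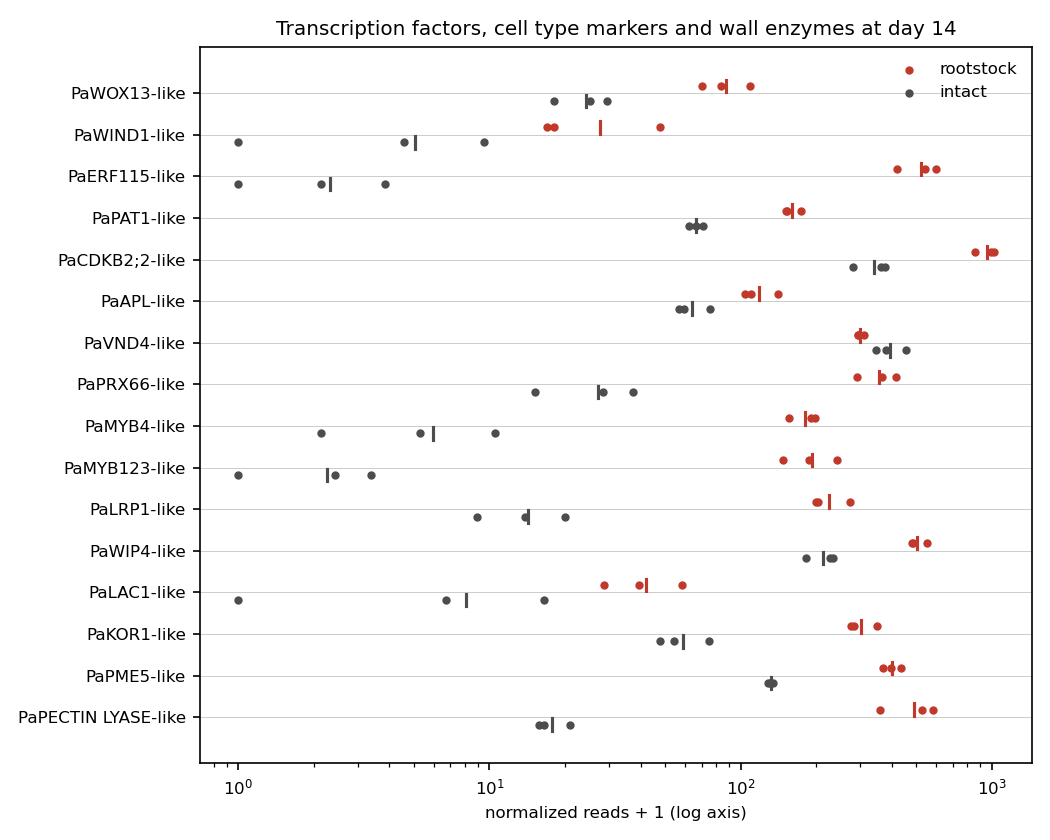
Normalized reads + 1 (log axis) of the 16 genes the study named, in 3 rootstock (red) and 3 intact (grey) libraries at 14 DAG; bars are means. For all genes but PaVND4-like, every rootstock library lay above every intact library, and for PaVND4-like every rootstock library lay below. Among all tested genes, 25.1% lay wholly above and 22.9% wholly below in this way.

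Several genes of dividing cells were up-regulated. PaCDKB2;2-like (MA_920994g0010), annotated as a B1-type cyclin-dependent kinase and thus a mitotic kinase, had 1022, 858 and 993 normalized reads in rootstock, against 374, 279 and 359.9 in intact hypocotyl, a log2 difference of 1.53 (SE 0.12 and adjusted p = 2.1e-13). No library of one group reached the other. Intact hypocotyl had averaged 887.2 (SD 71.7) on the day of grafting, and the rootstock mean of 957.5 at 14 DAG lay near that level. Rootstock had not held this level throughout. It had 253, 242 and 256 normalized reads at 1 DAG and 1058, 1037 and 1215 at 3 DAG. In intact plants the gene had fallen by 1.40 on the log2 scale between these days (edgeR, adjusted p = 1.3e-12). A D3-type cyclin (MA_17738g0010), which drives entry into the cell cycle, had 1572, 1373 and 1712 in rootstock and 499.9, 408 and 524 in intact stem (log2 fold change 1.73, SE 0.14, adjusted p = 8.3e-13). Of 14 cyclin and DNA replication genes, 6 were up-regulated, and of 20 histone genes 10 were up-regulated and 1 down-regulated, with median log2 fold changes of 0.96 and 1.02. Of 103 ribosomal protein genes, 4 were up-regulated and 0 down-regulated (2 up-regulated without intact replicate 3), and their median was 0.63. That median equals the one among genes with a name. In 90 of the 103, every rootstock library lay above every intact library. This was a larger share than the 2016 of the 3823 genes with a name, or the 25.1% of all tested genes.

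Of the vascular markers, 1 was up-regulated and the others stayed short of the threshold. PaAPL-like (MA_201937g0010), related to the Arabidopsis regulator of phloem identity, had 109, 103 and 139.7 normalized reads in rootstock, against 58.4, 74.8 and 55.8 in intact hypocotyl. Its log2 difference of 0.92 (SE 0.19 and adjusted p = 9.4e-05) stayed below 1 and reached 1.06 without intact replicate 2 and 1.00 without rootstock replicate 2. PaVND4-like (MA_6777g0010), a NAC factor of the group that switches on vessel formation in Arabidopsis, had 309.6, 292 and 292 in rootstock and 454, 346 and 378 in intact stem, with a log2 difference of -0.36 (SE 0.14 and adjusted p = 0.037), again short of the size required and with an adjusted p of up to 0.16 when 1 library was left out. PaPRX66-like (MA_10431507g0020), a peroxidase gene taken as a xylem marker, was higher in all rootstock libraries, with 364, 289 and 413, against 14.2, 36.3 and 27.3 in intact libraries (log2 fold change 3.76, SE 0.39, adjusted p = 1.5e-09).

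Enzymes that cut pectin were up-regulated in most members tested. Of 37 pectate and pectin lyase genes, 25 were higher in rootstock and 0 lower, and the median log2 fold change was 1.71. PaPECTIN LYASE-like (MA_6752784g0010) had 357, 581 and 529 normalized reads in rootstock and 19.9, 14.7 and 15.4 in intact hypocotyl (log2 fold change 4.91, SE 0.36, adjusted p = 3.3e-13). The lyase with the largest rise, a probable pectate lyase 18 (MA_10205415g0010), had 577, 444 and 505 in rootstock, against 1.424, 1.13 and 0 in intact stem (615-fold, 95% counting interval 170 to 5080). The absence of overlap was a condition for naming the second of these genes. Of 10 polygalacturonases, which hydrolyse the pectin backbone, 7 were higher and 0 lower, among them MA_133473g0010 with 168, 152 and 205 in rootstock and 0, 5.67 and 0 in intact stem.

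The beta-1,4-glucanases, which cut cellulose and related glucans, were up-regulated in 15 of 22 cases and down-regulated in 0 (median 1.78). PaKOR1-like (MA_69345g0010), of a membrane-bound type needed for cellulose synthesis in Arabidopsis, had 283, 275 and 347 normalized reads in rootstock and 47.00, 73.7 and 53.5 in intact hypocotyl (log2 fold change 2.39, SE 0.26, adjusted p = 2.5e-09). An endoglucanase 3 gene (MA_697188g0010) had 828, 846 and 1080 in rootstock, against 42.7, 38.6 and 55.8 in intact stem (log2 fold change 4.35, SE 0.37, adjusted p = 3.1e-11). For both genes, intact libraries showed a basal level that the rootstock exceeded without overlap. Expansins, which loosen walls without cutting them, were higher in 15 of 19 cases and lower in 1. Their median log2 fold change was 2.58, or 1.99 with the 2 members that had no read in one group placed at a floor of 3 reads. An expansin-B3-like gene (MA_166764g0010) led them with 479, 364 and 409 in rootstock and 1.424, 1.13 and 0 in intact stem (505-fold, 95% counting interval 139 to 4170), whereas an expansin annotated without a subfamily (MA_10430035g0010) had 42.7, 41.7 and 40.1 in rootstock, against 72.6, 117 and 71.3 in intact stem, and fell by 1.04 on the log2 scale.

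Xyloglucan endotransglucosylases, which cut and rejoin the glucans that tether cellulose, were up-regulated in 4 of 12 cases and down-regulated in 0. The share of 33.3% lay near the 28.5% among genes with a name. In 2 members every rootstock library lay below every intact library. The member MA_10251013g0010 had 4427, 3702 and 4424 normalized reads in rootstock and 906, 599 and 804 in intact hypocotyl (log2 fold change 2.48, SE 0.20, adjusted p = 4e-12). A cellulose synthase E6 gene (MA_10436687g0010) was the 1 called member of 8 cellulose synthase genes, with 176, 323 and 214 in rootstock and 68.4, 62.4 and 110.5 in intact stem (log2 fold change 1.59, SE 0.37, adjusted p = 0.00072).

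Pectin methylesterases, which remove methyl groups from pectin, moved in both directions: 18 of 54 were up-regulated and 5 down-regulated. The 18 were 33.3% of the list, near the 28.5% among genes with a name, and the 5 were 9.26%, beside 2.48%. PaPME5-like (MA_10267810g0010) had 434, 368 and 396 normalized reads in rootstock and 128, 130.4 and 134 in intact hypocotyl (log2 fold change 1.64, SE 0.17, adjusted p = 4.9e-10), and MA_10426321g0010 had 207, 212 and 302 in rootstock, against 71.2, 53.3 and 59.4 in intact stem (log2 fold change 2.01, SE 0.19, adjusted p = 2.1e-11). On the lower side, a pectinesterase-like gene (MA_648837g0010) had 37.4, 8.94 and 3.44 in rootstock, against 187, 109 and 185 in intact stem (log2 fold change -3.22, SE 0.51, adjusted p = 3e-06). A second one (MA_53377g0010) had 27.8, 22.8 and 2.29 in rootstock and 131, 107 and 169 in intact stem (log2 fold change -2.88, SE 0.53, adjusted p = 3.6e-05). In these 4 members no rootstock library overlapped an intact one, which the rule for naming required of the pair that fell.

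Laccases, which oxidise lignin precursors, were up-regulated in a minority. Of 61 laccase genes, 13 were up-regulated and 3 down-regulated, and their median log2 fold change was -0.60, with 36 of the 61 below 0, against a median of 0.63 among genes with a name. The number lower was 8 without rootstock replicate 1 or without intact replicate 2, and 1 without intact replicate 3. The laccase with the largest rise (MA_97119g0010) had 362, 294 and 350.4 normalized reads in rootstock and 5.70, 5.67 and 20.2 in intact hypocotyl (log2 fold change 4.98, SE 0.64, adjusted p = 1.1e-07). A multicopper oxidase of the list (MA_10431084g0010) had 23.5, 28.8 and 22.9 in rootstock, against 132, 129 and 126 in intact stem (log2 fold change -2.33, SE 0.31, adjusted p = 4.8e-08). No overlap was seen in either, as naming required of the oxidase, while 45 laccases passed the test in neither direction. PaLAC1-like (MA_75861g0010) was scarce, with 38.4, 57.6 and 27.5 in rootstock and 5.70, 0 and 15.4 in intact stem. Its rise of 2.58 (SE 0.97, adjusted p = 0.033) was lost without rootstock replicate 1 (adjusted p = 0.051), rootstock replicate 2 (0.11), intact replicate 1 (0.081) or intact replicate 2 (0.15). A gene of the study's laccase list (MA_10434084g0010) was annotated as a pectinesterase and was among those called higher.

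Class III peroxidases, which also oxidise lignin precursors, were up-regulated in 27 of 40 cases and down-regulated in 2, with a median log2 fold change of 2.34. A peroxidase 4-like gene (MA_10432379g0020) had 871, 1025 and 1397 normalized reads in rootstock and 0, 1.13 and 0 in intact hypocotyl. A single read was found in the 3 intact libraries, for a ratio of 2640-fold (95% counting interval 474 to 104000) and an adjusted p of 1.8e-13. Its neighbour by identifier, a cationic peroxidase 1-like gene (MA_10432379g0010), had 128, 163 and 175 in rootstock and no read in intact stem, at least 125-fold higher against a floor of 3 reads over the 3 intact libraries. Another cationic peroxidase (MA_10435976g0010) went down, with 49.1, 36.7 and 60.7 in rootstock, against 98.3, 166 and 89.1 in intact stem (log2 fold change -1.25, SE 0.28, adjusted p = 0.00045). The fall was short of the required size without intact replicate 2 (log2 fold change -0.92, adjusted p = 0.018).

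Of 39 enzymes of phenylpropanoid and monolignol synthesis, 11 were up-regulated (28.2%) and 0 down-regulated, beside 28.5% among genes with a name. The largest rise was in a trans-cinnamate 4-monooxygenase gene (MA_10435536g0010), an early enzyme of the pathway, with 1262, 961 and 952 normalized reads in rootstock and 2.85, 31.8 and 29.7 in intact hypocotyl (log2 fold change 5.58, SE 1.06, adjusted p = 6.2e-05). Its first intact library was far below the other two, and all 3 were far below rootstock. Dirigent proteins, which steer the coupling of monolignol radicals, were up-regulated in 12 of 19 cases and down-regulated in 0 (median 3.04, or 2.29 with 3 members at the floor), among them pDIR13 (MA_10435797g0010) with 979, 947 and 612 in rootstock and 102, 19.3 and 102 in intact stem (log2 fold change 3.56, SE 0.58, adjusted p = 7.3e-06).

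Flavonoid enzymes had up-regulated members at the entry of the pathway and at later steps, but not all members rose. Of 36 flavonoid enzymes, 19 were higher (52.8%, beside 28.5% among genes with a name) and 1 lower, with a median of 1.41. A further 16 were not called, and 11 of the 36 had a log2 fold change below 0. At the entry, a chalcone synthase gene (MA_10426264g0020) had 25130, 16640 and 20130 normalized reads in rootstock, against 5712, 6060 and 6650 in intact hypocotyl (log2 fold change 1.78, SE 0.19, adjusted p = 2.7e-09). A flavanone 3-hydroxylase (MA_122993g0010) had 1878, 1099 and 1402 in rootstock and 360.3, 334 and 474 in intact stem (log2 fold change 1.93, SE 0.26, adjusted p = 3e-07), and a dihydroflavonol 4-reductase (MA_10432136g0010) had 295, 193 and 239 in rootstock and 28.5, 28.4 and 29.7 in intact stem (log2 fold change 3.09, SE 0.41, adjusted p = 1.9e-07). These steps lead to the flavan-3-ols from which the condensed tannins of spruce bark are built. The largest rise was in a leucoanthocyanidin dioxygenase (MA_10435917g0020), which makes anthocyanidins, with 9212, 4245 and 6240 in rootstock and 238, 89.6 and 326 in intact stem (log2 fold change 4.95, SE 0.51, adjusted p = 1.4e-09). A leucoanthocyanidin reductase (MA_10144850g0010), which makes catechin, had 1350, 894 and 1033 in rootstock, against 236, 107 and 122 in intact stem (log2 fold change 2.87, SE 0.29, adjusted p = 1.3e-09). In each of these 5 genes the groups did not overlap, and all but the dioxygenase were picked by pathway step after their values were known.

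Defence proteins were up-regulated in many members. Of 41 pathogenesis-related and chitinase genes, 23 were up-regulated and 0 down-regulated, with a median log2 fold change of 3.07. A PR-1-like gene (MA_102795g0010), of a secreted class used as a sign of defence activation, had 2739, 3141 and 3370 normalized reads in rootstock and 7.12, 9.07 and 5.94 in intact hypocotyl (log2 fold change 8.71, SE 0.41, adjusted p = 7.5e-17). A class IV chitinase (MA_10427514g0010), which cuts fungal cell walls, had 12500, 28180 and 33050 in rootstock, against 1558, 3687 and 3740 in intact stem (log2 fold change 3.07, SE 0.81, adjusted p = 0.0025). An anti-microbial peptide gene (MA_248276g0010) had 9721, 14800 and 13970 in rootstock and 366, 907 and 880.2 in intact stem (log2 fold change 4.18, SE 0.92, adjusted p = 0.00041). Of 13 beta-1,3-glucanases, which degrade callose and fungal glucans, 6 were higher and 0 lower, and MA_10435462g0010 had 186, 240.3 and 340.1 in rootstock, against 1.424, 11.3 and 7.13 in intact stem.

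Of 49 genes annotated as NBS-LRR or disease resistance proteins, 10 were higher and 0 lower, beside 28.5% of genes with a name being higher, and their highest member at 100 or more normalized reads was not an NBS-LRR receptor but an ENHANCED DISEASE RESISTANCE 2-like gene (MA_19668g0010, with 196, 218 and 183 in rootstock and 59.8, 49.9 and 30.9 in intact stem). Glutathione S-transferases, detoxifying enzymes, were up-regulated in 18 of 32 cases and down-regulated in 0. The member MA_10333127g0010 had 304, 225 and 207 normalized reads in rootstock and 15.7, 10.2 and 23.8 in intact stem (log2 fold change 3.92, SE 0.36, adjusted p = 4.6e-11). Heat shock and DnaJ chaperones were called in 9 cases higher (17%) and 1 lower of 53. A class I small heat shock gene (MA_106915g0010) rose, with 127, 78.5 and 105 in rootstock and 21.4, 6.80 and 16.6 in intact stem, while another (MA_104806g0010) fell, with 199, 284 and 183 in rootstock and 365, 714 and 496 in intact stem. That fall was -0.93 on the log2 scale, short of the required size, without intact replicate 2. Of 14 dehydrin and LEA genes, which protect cells against drying, 3 were higher (21.4%) and 0 lower. That share and the 17% of the chaperones lay below the 28.5% of genes with a name. In all, 19 of the 29 lists had 0 members lower by edgeR's quasi-likelihood test. Among genes with a name 2.48% were lower, so a short list can have 0 by its size alone. Of the 521 tested members of these 19 lists, 12 lay lower at an unadjusted p under 0.05, and DESeq2 called 1 lower, a beta-1,4-glucanase. The 19 lists were grouped by their count of 0, so the 521 members do not stand for all lists.

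Hormone-related genes were up-regulated in some members and down-regulated in others. Of 45 auxin genes, 9 were up-regulated and 4 down-regulated (2 without rootstock replicate 1 or rootstock replicate 3), with a median of 0.13. The shares were 20% and 8.89%, beside 28.5% and 2.48% among genes with a name. An indole-3-acetate O-methyltransferase (MA_25646g0010), which methylates auxin, had 231, 338 and 389 normalized reads in rootstock and no read in intact hypocotyl, at least 257-fold higher. An auxin-induced 15A-like gene (MA_117133g0010), of the SAUR family, had 18.1, 23.8 and 32.1 in rootstock, against 81.2, 169 and 122 in intact stem (log2 fold change -2.31, SE 0.43, adjusted p = 3.8e-05). Of 26 jasmonate genes, 10 were higher and 2 lower, and a TIFY 10A gene (MA_10426545g0020), a repressor that jasmonate induces in Arabidopsis, had 183, 117 and 176 in rootstock and 27.1, 30.6 and 33.3 in intact stem (log2 fold change 2.40, SE 0.29, adjusted p = 1.2e-08). Of 22 genes of ethylene synthesis and ERF factors, 9 were higher and 0 lower, and the 1 tested cytokinin gene was not called.

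Among transporters, 4 of 5 aquaporins were up-regulated. The aquaporin NIP1-1 gene (MA_10990g0010), of a class of channels for small solutes, had 1110, 1124 and 1446 normalized reads in rootstock, against 29.9, 13.6 and 30.9 in intact hypocotyl (log2 fold change 5.67, SE 0.29, adjusted p = 6.3e-17). Of 13 sugar transporters, 2 were higher (15.4%, beside 28.5% among genes with a name). Among these, a sugar carrier C-like gene (MA_170670g0010) had 2321, 1806 and 2038 in rootstock and 770.4, 716 and 558 in intact stem. The list had 1 member lower. That member, ERD6-like 16 (MA_10430268g0010), had 34.2, 46.7 and 90.5 in rootstock and 64.1, 195 and 179 in intact stem, so its groups overlapped although the test was passed (log2 fold change -1.35, SE 0.42, adjusted p = 0.0098, with the call lost at 0.07 without intact replicate 2 and at 0.068 without rootstock replicate 1).

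In all, 13 genes had no read in any intact library at 14 DAG and at least 30 reads in each rootstock library, and no gene showed the reverse. Given against a floor of 3 reads over the 3 intact libraries, the lower bounds on their ratio ran between 31 and 608. The highest was a PR10 gene (MA_135328g0010), of a small intracellular defence protein family, with 662, 887 and 569 reads in rootstock, at least 608-fold higher. A 2-oxoglutarate-dependent dioxygenase (MA_10431230g0020) had 638, 802 and 638 reads, at least 597-fold higher, and a probable WRKY factor 31 (MA_175750g0010) had 343, 394 and 450 reads, at least 341-fold higher. All 3 had been read in intact hypocotyl on the day of grafting, although only 6, 20 and 1 times over 3 libraries. The scion at 14 DAG held 2492, 1676 and 584 reads of the same genes, so both sides of the graft expressed them. A serine-type endopeptidase inhibitor (MA_10436108g0010) had 184, 220 and 489 reads in rootstock (at least 256-fold), against 161 over the 3 scion libraries, and rootstock exceeded scion by a log2 difference of 2.62 (SE 0.67 and adjusted p = 0.011). A second auxin O-methyltransferase (MA_13253g0010, at least 46.2-fold) and a peroxidase 72-like gene (MA_195775g0010, at least 70-fold) belonged to the same 13, of which 5 carried no name.

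Among the 12 largest falls that met the rule for naming were 2 enzymes of surface lipids, the pectinesterases and the multicopper oxidase above, and the SAUR gene. A fatty acyl reductase 2 gene (MA_10430156g0010), of a family that makes wax and suberin alcohols, had 60.9, 103 and 57.3 normalized reads in rootstock, against 289, 531 and 474 in intact hypocotyl (log2 fold change -2.51, SE 0.45, adjusted p = 2.9e-05). A BAHD acyltransferase DCR gene (MA_10429815g0020), required for cutin in Arabidopsis, was abundant in intact stem and had 2688, 3433 and 2390 in rootstock, against 10460, 11680 and 9685 in intact (log2 fold change -1.87, SE 0.34, adjusted p = 3.9e-05). In both, every rootstock library lay below every intact library, as naming required. A RING-H2 finger ATL78-like gene (MA_10426834g0010), of a ubiquitin ligase family, had 28.8, 11.9 and 11.4 in rootstock and 58.4, 155 and 140.2 in intact stem (log2 fold change -2.74, SE 0.57, adjusted p = 0.00019). The water deficit inducible LP3 gene (MA_281368g0010), known from drought-stressed pine, had 23.5, 17.9 and 28.6 in rootstock, against 149.5, 125 and 74.8 in intact stem (log2 fold change -2.28, SE 0.36, adjusted p = 2.9e-06). A universal stress A gene (MA_188861g0010) had 125, 118 and 87.03 in rootstock and 450, 404 and 419 in intact stem (log2 fold change -1.91, SE 0.21, adjusted p = 1.4e-09). The remaining falls were in a carboxylesterase 15 (-1.93), an alpha-amylase that breaks down starch (-1.81) and a methylesterase 17 (-1.78), whose Arabidopsis relative frees auxin from its methyl ester. Only 26 down-regulated genes met the conditions of name, level and non-overlap from which these were drawn.

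The rootstock at 7 and 28 DAG shared no library with that at 14 DAG, each having its own intact group. Of the 3578 genes up-regulated at 14 DAG, 2030 were also up-regulated at 7 DAG, 56.7% of the day 14 list and 70% of the day 7 list, and 1633 at 28 DAG, 45.6% of the day 14 list and 58.4% of the day 28 list. Down-regulated genes were shared in smaller numbers, 684 with 7 DAG (37.3% and 45.3% of the lists of 14 and 7 DAG) and 421 with 28 DAG (22.9% and 55.8% of the lists of 14 and 28 DAG), of a day 28 list of 755. Of the 3578, 13 were down-regulated at 7 DAG and 3 (0.0838%) at 28 DAG, and 19.7% had been down-regulated at 1 DAG and 7.15% at 3 DAG. Of the 1835 down-regulated at 14 DAG, 0 were up-regulated at 7 DAG and 55 (3%) at 28 DAG, and 5.12% had been up-regulated at 1 DAG and 3.81% at 3 DAG. These shares are to be read against the calls among all 38436 tested genes. At 1 DAG, 5294 were up-regulated and 6350 down-regulated, and at 3 DAG 3676 and 3886. At 7 DAG the numbers were 2901 and 1510, and at 28 DAG 2796 and 755.

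The difference between days was tested directly as an interaction, the log2 fold change at 14 DAG minus that on the other day. Against 7 DAG it was called higher in 457 genes (1.19% of those tested) and lower in 264 (0.687%), 1.88% in all. Against 28 DAG it was called higher in 777 (2.02%) and lower in 773 (2.01%), 4.03% in all. Among the genes up-regulated at 14 DAG, 635 (17.7%) lay farther from intact than at 28 DAG and 7 nearer, and among those down-regulated 21.4% lay farther and 5 genes nearer. Against 7 DAG the corresponding numbers were 244 (6.82%) farther and 37 nearer for the up-regulated genes, and 103 (5.61%) farther and 18 nearer for the down-regulated genes. These splits follow in part from selecting genes on the day 14 value. The counts against 7 DAG depended on single libraries: 280 were higher without intact replicate 1 of 7 DAG and 284 without intact replicate 2 of 14 DAG, while 162 were lower without rootstock replicate 3 of 7 DAG, 172 without intact replicate 2 of 14 DAG, 173 without rootstock replicate 3 of 14 DAG and 415 without intact replicate 1 of 14 DAG. Scaling by library size alone made the split 626 higher to 203 lower (75.5% higher, against 63.4%). A fit on the groups compared alone called 202 higher against 7 DAG and 491 against 28 DAG.

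The regulators followed different courses around 14 DAG. PaWOX13-like was at 159.8, 148 and 129 normalized reads in rootstock at 7 DAG and 37.9, 42.6 and 46.7 at 28 DAG, while intact hypocotyl had 11.7, 12.4 and 22.5 at 7 DAG and 40.4, 19.1 and 33.9 at 28 DAG. Its graft effect at 14 DAG was smaller than that at 7 DAG (interaction -1.33, SE 0.39, adjusted p = 0.032) and larger than that at 28 DAG (interaction 1.46, SE 0.35, adjusted p = 0.0047), when rootstock and intact libraries overlapped. The interaction against 7 DAG was no longer called without intact replicate 3 of 14 DAG (adjusted p = 0.13). PaERF115-like was far higher in rootstock on all 3 days, and neither interaction was called (adjusted p = 0.81 against 7 DAG and 0.12 against 28 DAG). PaCDKB2;2-like had 374, 487 and 459 in rootstock at 28 DAG, against 399, 313 and 338 in intact stem, and its graft effect was larger at 14 DAG by 1.20 on the log2 scale (SE 0.17, adjusted p = 6.7e-06). PaPME5-like likewise overlapped between groups at 28 DAG, with 161, 165 and 113 in rootstock and 137, 130.2 and 135 in intact stem (interaction 1.51, SE 0.25, adjusted p = 7.1e-05). PaPECTIN LYASE-like was wider apart at 7 DAG, with 1005, 861 and 989 in rootstock and 8.77, 1.38 and 7.50 in intact stem at 7 DAG, and interactions of -2.45 (SE 0.76, adjusted p = 0.049) against 7 DAG and 1.86 (SE 0.59, adjusted p = 0.038) against 28 DAG. Both were lost with 1 library out, reaching adjusted p = 0.15 without intact replicate 2 of 7 DAG and 0.19 without intact replicate 3 of 28 DAG.

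For PaPRX66-like the graft effect was larger at 14 than at 7 DAG. Rootstocks had 211, 235 and 216 normalized reads at 7 DAG, against 83.3, 77.2 and 91.6 in intact hypocotyl, and the interaction was 2.34 (SE 0.54, adjusted p = 0.0081). Rootstock means were 220.4 and 356 at 7 and 14 DAG and intact means 84.05 and 25.9. In intact plants this gene had averaged 524 on the day of grafting, and by 14 DAG it fell by 4.3 on the log2 scale (adjusted p = 4.2e-11). Over all tested genes, intact hypocotyl at 14 DAG differed from day 0 in 3009 genes higher (7.83%) and 3079 lower (8.01%), so the plants against which rootstocks were measured had themselves changed.

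For PaMYB4-like and PaLRP1-like the smaller difference at 28 DAG went with a higher level in intact hypocotyl than at 14 DAG, while rootstock was no lower. PaMYB4-like had 206, 237 and 206 normalized reads in rootstock and 130.4, 30.04 and 62.6 in intact stem at 28 DAG, and its graft effect was larger at 14 DAG by 3.62 on the log2 scale (SE 0.64, adjusted p = 2e-04). PaLRP1-like had 307, 274 and 319 in rootstock and 181, 65.5 and 115 in intact stem at 28 DAG (interaction 2.78, SE 0.39, adjusted p = 5e-06). Of the 36 flavonoid enzymes, 17 (47.2%) were called higher in the interaction against 28 DAG, against 6.54% of genes with a name. The chalcone synthase MA_10426264g0020 had 20520, 20430 and 20850 in rootstock and 25480, 12460 and 14930 in intact stem at 28 DAG, and the leucoanthocyanidin dioxygenase MA_10435917g0020 had 4326, 4476 and 4283 in rootstock and 4986, 950.4 and 2195 in intact stem (interaction 4.26, SE 0.63, adjusted p = 3.2e-05). Intact hypocotyl was higher at 28 than at 14 DAG for both enzymes, while the rootstock libraries of the dioxygenase lay near the lowest of its 14 DAG values. Intact replicate 1 of 28 DAG was the highest of its group for all 4 of these genes, and without it 11 of the 36 flavonoid enzymes were called. The part of this library in the result was tested only by leaving it out.

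**Figure D3:**
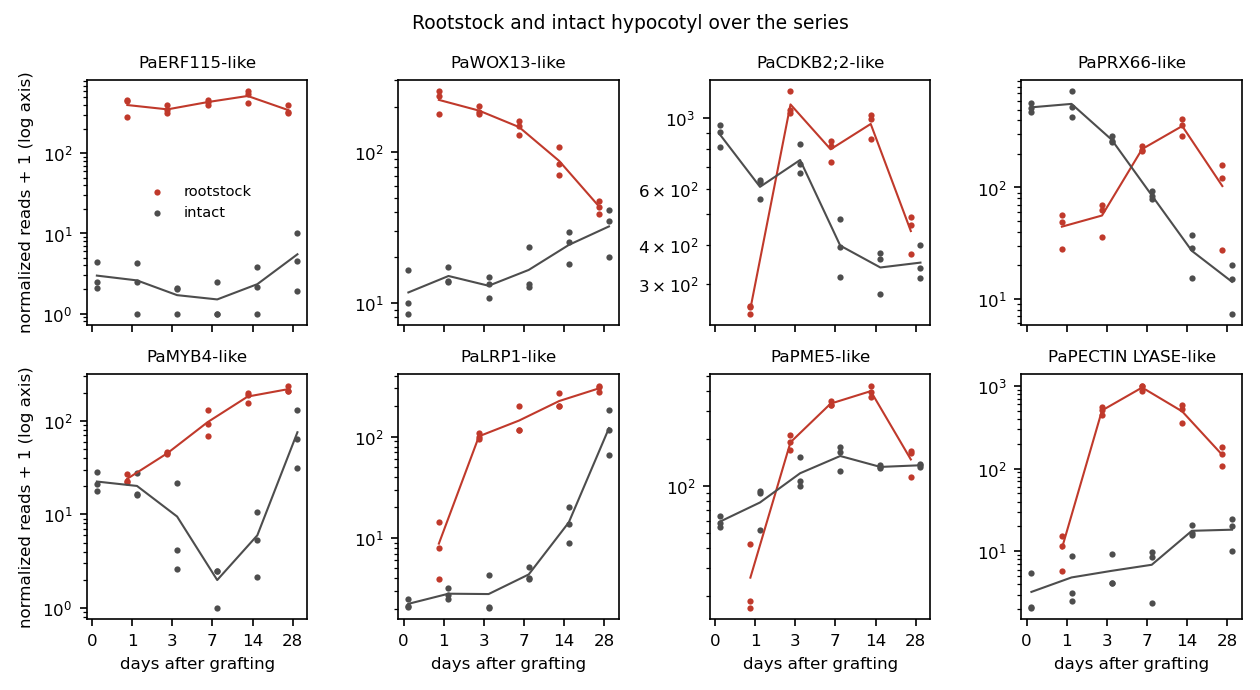
Normalized reads + 1 (log axis) of 8 genes against days after grafting, in rootstock (red) and intact hypocotyl (grey); points are libraries, lines join group means, and day 0 has intact plants alone. PaWOX13-like rootstocks fall towards intact by day 28, PaPRX66-like groups cross between days 3 and 7, and PaMYB4-like and PaLRP1-like intact plants come up by day 28.

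In all, 32 up-regulated and 25 down-regulated genes (0.894% and 1.36% of those called at 14 DAG) lay farther from intact at 14 DAG than on both neighbouring days, 0.0833% and 0.065% of those tested. Villin-3 (MA_10436386g0010), which bundles actin filaments, had 345, 377 and 435 normalized reads in rootstock, against 41.3, 32.9 and 43.95 in intact hypocotyl, at 14 DAG (log2 fold change 3.32, SE 0.20, adjusted p = 1.2e-16), and its interactions were 1.54 (SE 0.29, adjusted p = 0.0011) against 7 DAG and 2.37 (SE 0.28, adjusted p = 3.3e-07) against 28 DAG. It passed both tests with any 1 of the libraries left out. A homeobox-leucine zipper ATHB-51-like gene (MA_12866g0010) had 118, 81.4 and 124 in rootstock and 8.54, 4.54 and 8.31 in intact stem (log2 fold change 3.94, SE 0.35, adjusted p = 4e-12), and missed the threshold against 7 DAG without intact replicate 2 of that day (adjusted p = 0.051). A flavonoid 3',5'-hydroxylase (MA_10430573g0010), which adds hydroxyl groups to the flavonoid B ring, had 10860, 6977 and 9177 in rootstock and 1077, 1030 and 1266 in intact stem (log2 fold change 3.03, SE 0.34, adjusted p = 8.1e-09). Its intact libraries had 8922, 1342 and 3992 at 28 DAG, where replicate 1 again stood highest. A cytochrome gene (MA_180532g0010, log2 fold change 2.83, SE 0.33, adjusted p = 1.5e-08) and a second PR10 gene (MA_10265000g0010, log2 fold change 6.41, SE 0.50, adjusted p = 4.7e-12) completed the named rises, this PR10 gene losing its call against 7 DAG without intact replicate 1 of that day (adjusted p = 0.16) and against 28 DAG without intact replicate 3 of that day (0.18). The ATL78-like gene was the 1 named fall, with 17.8, 41.8 and 81.7 in rootstock and 27.8, 52.4 and 31.5 in intact stem at 7 DAG, and its interaction against 7 DAG was lost without rootstock replicate 3 of that day (adjusted p = 0.11).

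Among defence genes, some carried a wide spread between replicates at the neighbouring days and others did not. The PR10 gene MA_135328g0010 had 2016, 238 and 173 normalized reads in the 3 rootstock libraries of 28 DAG, and the class IV chitinase MA_10427514g0010 had 33210, 2786 and 1300 there and 2486, 17160 and 11540 in intact hypocotyl at 7 DAG. Replicate 1 of the 28 DAG rootstock was the high one for both. For neither gene was an interaction called, and the part of these libraries in that was not tested beyond leaving each out. In the list of pathogenesis-related and chitinase genes, 2 were called higher in the interaction against 28 DAG. That count was 4 without rootstock replicate 1 of 28 DAG. The PR-1-like gene MA_102795g0010 varied little in rootstock, with 3360, 3406 and 4588 at 7 DAG and 1208, 1544 and 1174 at 28 DAG, against 62.7, 21.9 and 79.2 in intact stem at 28 DAG. Its graft effect was larger at 14 than at 28 DAG (interaction 4.12, SE 0.60, adjusted p = 2.7e-05) and was not called against 7 DAG (interaction 0.22, adjusted p = 0.93).

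Rootstock and scion are the lower and upper side of the same union, and both were measured against the same intact libraries, so they were compared directly. At 14 DAG, 540 genes (1.4% of those tested) were higher in rootstock than in scion and 686 (1.78%) lower, 3.19% in all, against the 14.1% that separated rootstock from intact hypocotyl. Scaling by library size alone gave 439 higher and 897 lower (32.9% higher, against 44%), and 356 were higher without rootstock replicate 2. Of the 16 genes that the study named, 0 passed the test by edgeR and 0 by DESeq2, while 6 had an unadjusted p under 0.05. PaERF115-like, for example, had 544, 420.1 and 599 normalized reads in rootstock and 346, 359.9 and 434 in scion. PaVND4-like had the smallest adjusted p, with 309.6, 292 and 292 in rootstock, against 454, 404 and 529.5 in scion, a log2 difference of -0.64 (SE 0.14 and adjusted p = 0.0017).

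Of the genes that met the rule for naming, the largest difference was in a cell wall invertase gene, CWINV1 (MA_10038097g0010), which splits sucrose outside the cell and so helps a sink tissue to take up sugar. It had 54.5, 169.8 and 125 normalized reads in rootstock, against 1.73, 4.29 and 4.85 in scion (log2 fold change 5.0, SE 0.79, adjusted p = 4.4e-05). Intact hypocotyl had 44.1, 220.0 and 89.1, a range that overlapped the rootstock, with the scion below both. A dehydrin gene (MA_104214g0010) showed the opposite, with 53.4, 79.5 and 53.8 in rootstock, against 396, 719.8 and 599 in scion (log2 fold change -3.20, SE 0.71, adjusted p = 0.0027) and with 69.8, 170.1 and 76.03 in intact stem. Other genes lower in rootstock were an inactive purple acid phosphatase (MA_111037g0010, -2.42), the fatty acyl reductase 2 gene (MA_10430156g0010, -1.98), a 2-oxoisovalerate dehydrogenase that breaks down branched amino acids (MA_19566g0010, -1.86) and a phospholipase A1 (MA_10433704g0010, -1.73).

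Several defence genes were higher in rootstock than in scion. The anti-microbial peptide gene MA_248276g0010 had 9721, 14800 and 13970 normalized reads in rootstock and 1321, 883 and 479.9 in scion (log2 fold change 3.82, SE 0.90, adjusted p = 0.0047). The class IV chitinase MA_10427514g0010 had 12500, 28180 and 33050 in rootstock, against 1655, 2007 and 2800 in scion (log2 fold change 3.50, SE 0.82, adjusted p = 0.0045). For both, scion libraries overlapped the intact range and every rootstock library lay above it. A second class IV chitinase (MA_102538g0010) had 58.7, 131 and 255 in rootstock and 8.67, 5.15 and 16.96 in scion (log2 fold change 3.91, SE 0.71, adjusted p = 0.00027), and a late embryogenesis abundant (LEA) gene (MA_10429143g0010) had 991, 1418 and 1136 in rootstock and 61.6, 103 and 73.9 in scion (log2 fold change 3.88, SE 0.69, adjusted p = 0.00021). Of the 41 pathogenesis-related and chitinase genes, 8 were higher in rootstock and 0 lower, a count of 3 without scion replicate 1 or scion replicate 2 and of 4 without rootstock replicate 3. Of 40 peroxidases, 5 were higher and 0 lower, among them the peroxidase 4-like gene MA_10432379g0020 (log2 fold change 2.24, SE 0.32, adjusted p = 1.3e-05). Auxin genes were higher in 7 of 45 cases and lower in 0, which became 3 without scion replicate 2 and 2 without scion replicate 3 or rootstock replicate 2, and laccases were higher in 4 and lower in 6 of 61 cases. The 4 became 2 without scion replicate 1, scion replicate 2 or rootstock replicate 1, and the 6 became 2 without rootstock replicate 2. Genes with a name were higher in rootstock in 3.77% and lower in 2.93% of cases.

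**Figure D4:**
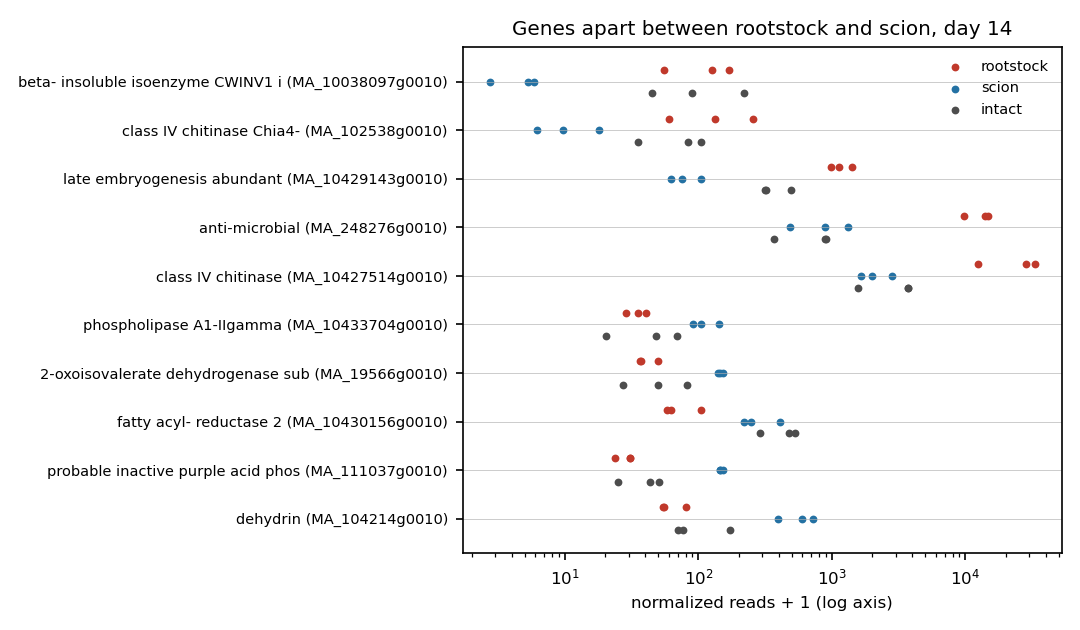
Normalized reads + 1 (log axis) in the 3 rootstock (red), 3 scion (blue) and 3 intact (grey) libraries of 14 DAG for the 10 genes named for their differences between rootstock and scion, ordered from rootstock higher (top) to rootstock lower (bottom). The invertase has low scions of 1.73 to 4.85 reads beside overlapping rootstock and intact values, while the dehydrin has high scions of 396.2 to 719.8.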

How the data were processed

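RNA was sequenced as paired reads from stranded, poly(A)-selected libraries. Per the labels and the study's methods, the authors trimmed the reads (fastp) after taking out ribosomal ones (SortMeRNA), mapped them on the Picea abies v1.0 assembly (STAR), assigned them to genes on the reverse strand (HTSeq) and deposited the raw counts per gene. Here all 48 libraries in 16 groups of 3 biologically independent replicates were fitted together with edgeR 4.0.16 (R 4.3.3) after filterByExpr at a minimum count of 10, with TMM scaling and robust quasi-likelihood tests. Benjamini-Hochberg adjustment ran over the 38436 genes kept, and calls required an adjusted p below 0.05 together with a change of over 1 in either direction on the log2 scale. Pooled tissue from 5 plants made each replicate, and its p-values measure the spread between such pools. For description, each count was divided by its library's DESeq2 size factor and given as normalized reads. Standard errors were derived from the F statistic and can be too small where reads are few. Counting intervals are exact binomial and, with the floor of 3 reads, cover counting error only.

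Alternatives were DESeq2 1.42.0, RLE scaling, scaling by library size alone, no filter or a strict one, the 4 or fewer groups compared alone, a replicate block, and each library left out. On simulated data with 200 changed genes among 38436, edgeR recovered 91% of 3-fold and 98% of 4-fold changes in rootstock against intact at 14 DAG and made 3 wrong calls. The changed genes were drawn from those above a minimum level in intact libraries, as many up as down, with the spread fitted to the real libraries. The real data held more changes, mostly upward and many at few reads, so these rates need not hold for them. Replicate numbers were checked for pairing: deviations of same-numbered rootstock and scion libraries correlated at 0.13, 0.168 and 0.189, which met the criterion for pairing (each above 0.1) from the data alone, while rootstock and intact libraries correlated at 0.05, 0.106 and 0.0156 and did not meet it. The main test had no block for either comparison, and the block is given as an alternative. Named genes were the 16 that the study names, the 12 largest rises and 12 largest falls among genes called, with an informative name, a mean of at least 100 normalized reads and no overlap, the largest called member of each list in each direction, and the leading genes of the interactions and of rootstock against scion. The comparison, the 29 gene lists and the members described were chosen with earlier results of these data known. Names came from the study's supplementary lists and tables. Sequences were not used here.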

Additional observations from a re-analysis of the deposited data

Results flagged for a closer look

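The graft effect in rootstock, the log2 difference from intact hypocotyl, differed between 14 DAG and its neighbouring days by the test of that difference. Against 7 DAG, 457 genes had a higher log2 fold change at 14 DAG and 264 a lower one. Of the 16 genes that the study named, PaWOX13-like differed by -1.33, PaPECTIN LYASE-like by -2.45 and PaPRX66-like by 2.34 on the log2 scale. Against 28 DAG, 777 genes were higher and 773 lower. The differences there were 1.46 for PaWOX13-like, 1.20 for PaCDKB2;2-like, 3.62 for PaMYB4-like, 2.78 for PaLRP1-like, 1.51 for PaPME5-like and 1.86 for PaPECTIN LYASE-like. No library was shared by the days compared. With 1 library left out, the adjusted p (edgeR) stayed at or below 0.026 for PaPRX66-like against 7 DAG and rose to 0.13 for PaWOX13-like and 0.15 for PaPECTIN LYASE-like. The part of single libraries of 7 and 28 DAG beyond leaving them out was not tested.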

How the results depend on the processing

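Genes called in rootstock against intact hypocotyl at 14 DAG numbered 3433 higher and 1996 lower with RLE scaling, 3872 and 1592 by library size alone and 3509 and 2008 with DESeq2, and the median log2 fold change of all genes lay between 1.31e-05 and 0.0886. With 1 library left out, the counts ran between 3124 and 3740 higher and 1505 and 2046 lower. The same range was 280 to 535 higher and 162 to 415 lower for the graft effect against 7 DAG, 540 to 870 and 591 to 787 against 28 DAG, 356 to 542 and 478 to 714 for rootstock against scion, and 2765 to 3149 and 2783 to 3147 for intact plants at 14 DAG against day 0. Expressed genes differed by 796.5 to 1078 per library and the share of the 10 most abundant genes by -2.045 to -1.699 percentage points. A fit on the groups compared alone called 202 higher against 7 DAG and 491 against 28 DAG, and the cause was not tested beyond the smaller number of libraries that give the spread.

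Rootstock and intact libraries shared only a number, and a replicate block changed their counts to 3559 higher and 1829 lower. Not every rootstock library correlated best with the intact library of its own number, replicate 3 being at 0.0156 with its own and 0.0192 with replicate 1. Between rootstock and scion the block gave 540 higher and 690 lower, and 563 and 760 in the 6 libraries alone, an alternative chosen after seeing the data. Beside these, the block changed 1 count by over 1.5 times, heat shock and DnaJ chaperones lower, to 2, and no call of a named gene. Of the log2 fold changes of named genes, 950 kept their direction and call over the alternatives, 16 lost the call, 3 gained it and 6 changed sign, all 6 in genes that were not called. CWINV1 (MA_10038097g0010) was 0.059 by library size alone, 0.012 with the block, and ran between -0.408 and 0.816 with 1 library left out (0.338 without rootstock replicate 1). MA_19566g0010 ran between -0.643 and 0.118 and MA_10433704g0010 between -0.743 and 0.099. Genes with few reads limit the comparison, since 216 of the 3578 up-regulated genes had no read in intact hypocotyl.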
